A study of Mus musculus with 4 samples.

Results

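The FoxO forkhead factors are the transcription factors encoded in the mouse by Foxo1, Foxo3, Foxo4 and Foxo6. All 4 were taken by symbol from the deposited tables of hippocampal transcripts, where they are 4 of 18492 listed genes, and all 4 were among the 13186 genes with a mean level of at least 1 RPKM (reads scaled to gene length in kilobases and to library size) that were compared. They were chosen by measured values: reads, RPKM and coverage were looked at, and Foxo6 was lower in both libraries that lack Mutyh. The Foxo6 difference between those libraries and the others is therefore described here and supports nothing further.

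Hippocampus of C57BL/6 mice aged 6 months was sequenced in 4 libraries, 1 for each genotype: wild type (WT), Ogg1-/- (Ogg1 KO), Mutyh-/- (Mutyh KO) and Ogg-/- Mutyh-/-, the combined knockout (DKO). The Ogg1 enzyme cuts 8-oxoguanine, an oxidised base, out of DNA, while Mutyh takes out the adenine that has been paired with it. The design asks which transcripts differ without each enzyme and without both. The labels describe knockout mice and name neither a promoter nor a Cre, and how many animals gave each RNA, and of which sex, was not stated. With 1 library per genotype there is no replicate check and no p-value, so each comparison sets libraries side by side, and every interval covers counting error alone.

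FoxO proteins bind DNA through a forkhead domain and switch on genes of stress resistance, cell cycle arrest, autophagy and glucose metabolism. Insulin and related growth factors act through PI3 kinase and the kinase Akt, which phosphorylates FoxO proteins and moves them out of the nucleus into the cytoplasm, while stress kinases and deacetylases favour their activity. Foxo1, Foxo3 and Foxo4 are made in many tissues, whereas Foxo6 is known mainly from the brain and is abundant in hippocampal neurons. FoxO6 moves between nucleus and cytoplasm less than the other members.

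The libraries held 17.02 to 18.20 M (megareads) of unique reads in genes. Ogg1 had 94, 130, 81 and 103 reads in the libraries labelled WT, Ogg1 KO, Mutyh KO and DKO. Its total was thus not lower in the library labelled Ogg1 KO (1.47-fold of WT, 1.12 to 1.94) or DKO (1.09-fold, 0.817 to 1.46, within counting error). Its coverage was lower in both: reads covered 86.7% and 81.5% of its length in WT and Mutyh KO against 47.2% and 46.4% in the libraries labelled Ogg1 KO and DKO. Every direction given for the Ogg1 KO and DKO libraries rests on those labels. Mutyh had 39, 35, 15 and 20 reads in the same order, lower in both libraries labelled as lacking it, and its mean level was under the limit for comparison. Xist, the RNA of the inactive X chromosome, had 10307 reads in Mutyh KO and 14 to 29 in the other libraries. Eif2s3y, a gene of the Y chromosome, had 456, 550, 184 and 516 reads in WT, Ogg1 KO, Mutyh KO and DKO. The part that sex plays in any comparison with Mutyh KO, that of Foxo6 included, was not tested. The summed level of 10 choroid plexus markers was 251, 2888, 2819 and 1449 RPKM in WT, Ogg1 KO, Mutyh KO and DKO. As for the tissue label, all 5 markers of CA1, 5 of CA3 and 5 of dentate granule cells had reads in every library. So did all 4 markers of neocortex and 5 of thalamus, so having reads does not tell hippocampus from those tissues.

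Foxo6 was the member that differed between libraries by the most. Its level was 14.5 RPKM in WT (662 reads, interval 13.4 to 15.6), 16.0 RPKM in the library labelled Ogg1 KO (689 reads, 14.8 to 17.3), 9.97 RPKM in Mutyh KO (432 reads, 9.05 to 10.95) and 8.74 RPKM in the library labelled DKO (402 reads, 7.90 to 9.63). Both Mutyh-null libraries were below both Mutyh-intact libraries, and no interval of the one pair reached the other. In order of level, Ogg1 KO and WT did not differ beyond counting error (WT 0.903-fold of Ogg1 KO, 0.810 to 1.01), and neither did Mutyh KO and DKO (DKO 0.877-fold of Mutyh KO, 0.763 to 1.01). The step between WT and Mutyh KO was larger than counting error.

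**Figure D1:**
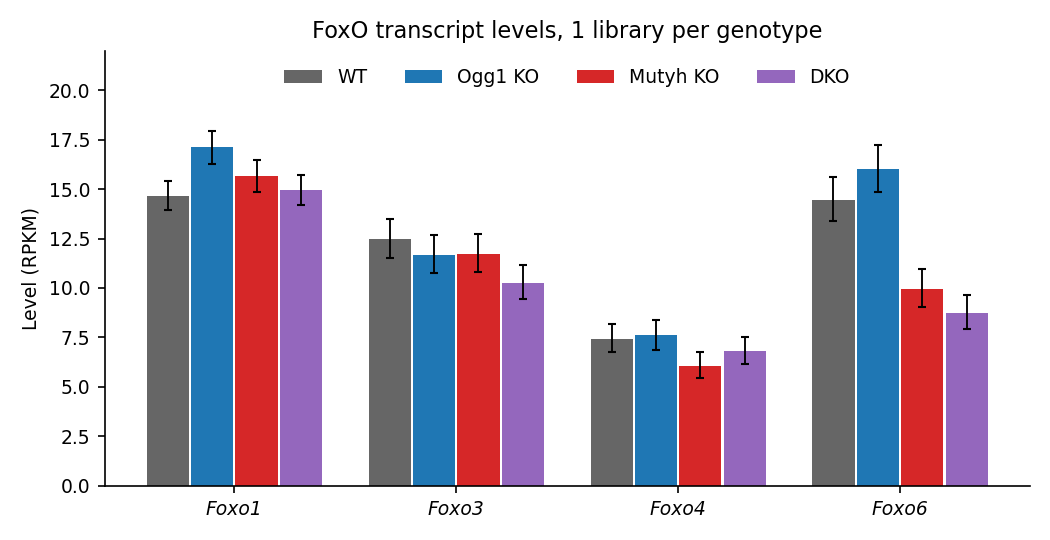
Level of each FoxO member in RPKM (vertical axis) in the 4 libraries, 1 bar per library, with 95% Poisson counting intervals as error bars. Foxo6 stands at 14.5 and 16.0 RPKM in WT and Ogg1 KO and at 9.97 and 8.74 RPKM in Mutyh KO and DKO, while the bars of Foxo1, Foxo3 and Foxo4 lie closer together.

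Set against WT in reads per library total, Foxo6 was 0.690-fold in Mutyh KO (0.609 to 0.780) and 0.604-fold in DKO (0.533 to 0.685). Ogg1 KO stood at 1.11-fold of WT for Foxo6 (0.994 to 1.23). The comparison of DKO with Ogg1 KO shares no library with that of Mutyh KO with WT, and there Foxo6 was 0.546-fold (0.481 to 0.618). A fold below 1 in both was fixed in advance by the choice of Foxo6, so neither supports the other. On the log2 scale of reads the difference was -0.54 between Mutyh KO and WT and -0.87 between DKO and Ogg1 KO. The second differed from the first by -0.34 with a counting standard error of 0.13. That error leaves out variation between animals and libraries. How many genes depart by as much was not computed, so nothing is read from this value. With the reads of each pair summed, the Mutyh-null libraries held 834 Foxo6 reads and the Mutyh-intact libraries 1351, 0.614-fold (0.562 to 0.670).

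Against all genes, this difference was among the most negative. The mean log2(RPKM + 1) of Foxo6 was 3.37 in the Mutyh-null pair and 4.02 in the Mutyh-intact pair, a difference of -0.65 that ranked 11 from the lowest of 13186. Lack of overlap between the pairs was common, since 19.6% of all genes were lower in both Mutyh-null libraries, and it held for 2 of the 4 members, Foxo4 and Foxo6. With a difference of at least 20% downward or 25% upward added to the lack of overlap, 0.774% of genes (102) were lower, with Foxo6 alone among the members, and 2.31% (305) were higher, with no member. At 1.5-fold, a limit chosen after the values were seen, 9 genes (0.0683%) were lower, and Foxo6 was the only one of them with at least 100 reads in every library. Rab3b, with 551 to 976 reads, fell just short of that limit at -0.56. The rule that chose Foxo6 used this contrast, so nothing is read from these shares.

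**Figure D2:**
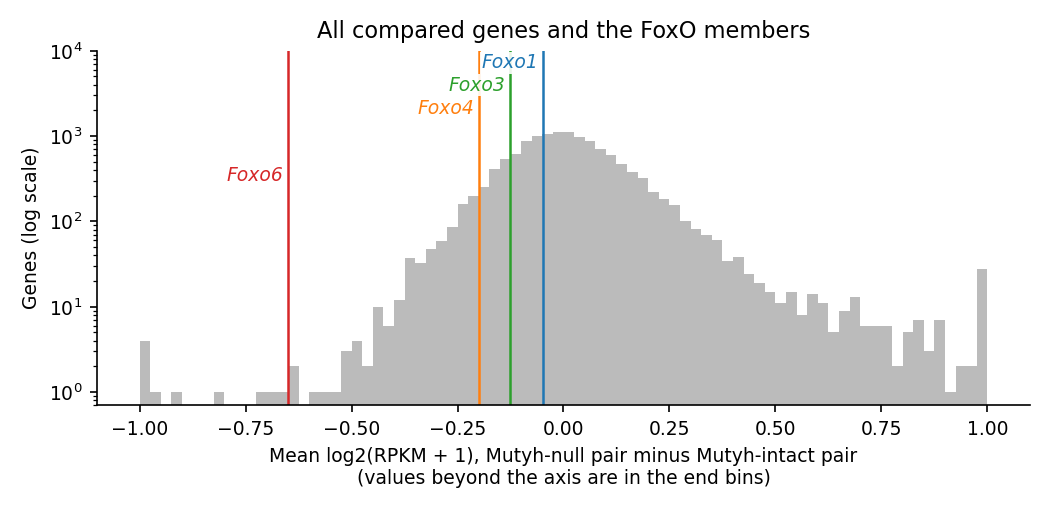
Histogram of all 13186 compared genes by the difference in mean log2(RPKM + 1) between the Mutyh-null pair and the Mutyh-intact pair (horizontal axis, number of genes on a log scale). Vertical lines mark the members: Foxo6 at -0.65 lies in the thin left tail, while Foxo4 at -0.20, Foxo3 at -0.13 and Foxo1 at -0.05 lie within the bulk.

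The share of the Foxo6 gene length covered by reads, a value that the choice also used, was lower in both Mutyh-null libraries. Foxo6 was least covered in Mutyh KO and not in DKO. Reads covered 93.1% of its 2528 bases in WT and 99.1% in Ogg1 KO, against 85.2% in Mutyh KO and 87.3% in DKO, which left 174, 21.99, 375 and 321 bases without reads. Foxo4, a gene of 3162 bases, had 93.8%, 96.9%, 94.5% and 95.35% covered in the same order. The part of read number in these coverages was not tested, and nothing further is read from them. Where in Foxo6 the uncovered bases lie is not given by the tables. Foxo3 (96.95% to 99.1%) and Foxo1 (95.3% to 97.8%) were covered to a like degree in all 4 libraries.

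Ratios between members within a library do not depend on how libraries are scaled. Per base of gene length, Foxo6 was 0.986-fold of Foxo1 in WT (0.898 to 1.08) and 0.936-fold in Ogg1 KO (0.855 to 1.02), that is, level with it within counting error, and 0.637-fold in Mutyh KO (0.571 to 0.710) and 0.584-fold in DKO (0.522 to 0.653). Foxo6 stood above Foxo3 in WT (1.16-fold, 1.04 to 1.29) and Ogg1 KO (1.37-fold, 1.23 to 1.54) and below it in Mutyh KO (0.850-fold, 0.748 to 0.964) and DKO (0.851-fold, 0.746 to 0.970). The order of levels was thus Foxo1, Foxo6, Foxo3, Foxo4 in the Mutyh-intact libraries and Foxo1, Foxo3, Foxo6, Foxo4 in the Mutyh-null ones. Foxo6 made up 29.5%, 30.6%, 22.96% and 21.4% of the summed FoxO RPKM in WT, Ogg1 KO, Mutyh KO and DKO. The sum itself was 49.0, 52.4, 43.4 and 40.8 RPKM in the same order.

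Marker sums of hippocampal cell types are given beside the Foxo6 values. The 7 neuronal markers were Snap25, Syt1, Rbfox3 and Stmn2, with Slc17a7, Gad1 and Gad2, which each mark a class of neurons. These 7 genes summed to 2266, 2275, 2152 and 2211 RPKM in WT, Ogg1 KO, Mutyh KO and DKO, lower in both Mutyh-null libraries. Their median log2 difference from WT was -0.06 in Mutyh KO and -0.04 in DKO, beside -0.49 and -0.67 for Foxo6. Of these 7 genes, 3 were lower and 1 higher without overlap, beside 19.6% and 18.3% of all genes. The 5 CA1 markers summed to 189, 174, 165 and 194 RPKM and the 5 CA3 markers to 185, 174, 173 and 189 RPKM, with no gene of either list lower or higher without overlap. The 5 dentate granule markers summed to 106, 91.4, 119 and 103 RPKM, and 3 of the 5 were higher without overlap. None of these markers was at 0 in any library. The part of cell makeup in the Foxo6 values was not tested. In bulk tissue, fewer cells of a type and less RNA per cell cannot be told apart.

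Foxo1, the member best known from insulin signalling in liver and from the endothelium, was at 14.7, 17.1, 15.6 and 14.95 RPKM in WT, Ogg1 KO, Mutyh KO and DKO (1475, 1617, 1489 and 1511 reads). The library labelled Ogg1 KO was the high one, and the other 3 lay within counting error of their neighbours in the order. Foxo1 in Ogg1 KO was 1.17-fold of WT (1.09 to 1.253), and in DKO it was 0.874-fold of Ogg1 KO (0.814 to 0.938). On the log2 scale of reads, the difference between libraries with and without Mutyh was 0.09 for Mutyh KO over WT and -0.19 for DKO over Ogg1 KO. The first lay within counting error (1.07-fold, 0.992 to 1.15), so no opposite direction is read from it. These values differed by -0.29 with a counting standard error of 0.07, which again leaves out variation between animals and libraries. Summed endothelial markers ranged from 48.5 RPKM in WT to 51.7 in Mutyh KO, with 49.9 in Ogg1 KO.

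Foxo3, a widely expressed member linked to stress resistance and the quiescence of stem cells, was at 12.5, 11.7, 11.7 and 10.3 RPKM in WT, Ogg1 KO, Mutyh KO and DKO (653, 574, 581 and 540 reads). The DKO library was the lowest, while WT and the libraries lacking 1 enzyme lay within counting error of each other. DKO was 0.823-fold of WT (0.733 to 0.924). It was 0.880-fold of Ogg1 KO (0.781 to 0.991) and 0.875-fold of Mutyh KO (0.777 to 0.986), but with libraries scaled by the median of gene ratios both of these intervals included 1.

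Foxo4, the X-linked member, was at 7.44, 7.60, 6.07 and 6.79 RPKM in WT, Ogg1 KO, Mutyh KO and DKO (426, 409, 329 and 391 reads). It was the least abundant member in every library, and lowest in Mutyh KO, the library with 10307 Xist reads. Neighbours in the order did not differ beyond counting error. Mutyh KO was 0.816-fold of WT for Foxo4 (0.705 to 0.945), and DKO was 0.914-fold (0.794 to 1.05). The part that sex-linked content plays in the Foxo4 values was not tested.

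Intervals that exclude 1 were frequent across genes at this depth. For Mutyh KO against WT the interval lay below 1 for 2 of the 4 members, Foxo4 and Foxo6, beside 16.4% of all genes, and for DKO against WT for 2 members, Foxo3 and Foxo6, beside 17.2%. In DKO against Ogg1 KO it lay below 1 for 3 members, all but Foxo4, beside 19.8%, and in DKO against Mutyh KO for Foxo3 alone, beside 13.4%. In Ogg1 KO against WT it lay above 1 for Foxo1 alone, beside 21.3%, and below 1 for no member, beside 16.2%. An interval above 1 held for no member in Mutyh KO against WT (19.8% of genes), DKO against WT (16.2%), DKO against Ogg1 KO (14.1%) or DKO against Mutyh KO (9.79%). A difference of at least 20% downward or 25% upward on the log2(RPKM + 1) scale was met by Foxo6 and by no other member. Foxo6 was lower by that much in Mutyh KO against WT (1.92% of genes), in DKO against WT (2.55%) and in DKO against Ogg1 KO (4.88%), contrasts that the choice of Foxo6 used. No member was past the upward limit in those comparisons (8.24%, 5.87% and 3.66% of genes). None was past either limit in Ogg1 KO against WT (3.57% of genes lower, 6.87% higher) or in DKO against Mutyh KO (4.14% lower, 1.22% higher).

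**Figure D3:**
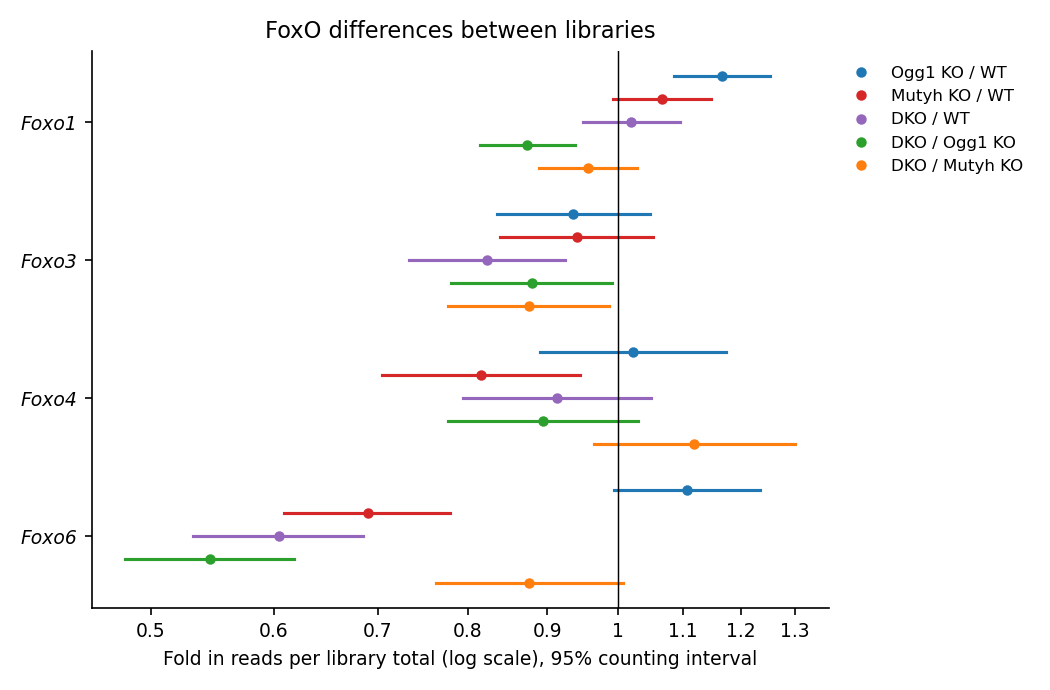
Fold in reads per library total (horizontal, log scale) of each FoxO member in 5 comparisons of libraries, with dots for the fold and lines for the 95% counting interval. For Foxo6 the 3 comparisons of a Mutyh-null with a Mutyh-intact library lie between 0.546 and 0.690, and the 2 comparisons within a pair include 1.

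Foxo6 and Mutyh lie on the same chromosome, chromosome 4, with 42 compared genes between them in the order of the RefSeq gene table. Of these 42 genes, 14 (33.3%) were lower in both Mutyh-null libraries and 9 were higher, beside 19.6% and 18.3% of all genes, and 1 of the 42 was lower by at least 20% and 1 higher by at least 25% without overlap, beside 0.774% and 2.31% of all genes. On the whole chromosome, 173 of 817 compared genes (21.2%) were lower in both and 154 were higher, of which 8 and 20 passed those limits. The 3 lowest of the 817 were Ndufs5 at -1.75, Foxo6 at -0.65 and Rab3b at -0.56, and the next value was -0.38. Rab3b lies on the far side of Mutyh, with 35 compared genes between them, and Ndufs5 lies beyond Foxo6, with 23 between. Ndufs5, a subunit of respiratory complex I, had 151, 135, 36 and 36 reads in WT, Ogg1 KO, Mutyh KO and DKO, but the counting could split its reads with a near-identical copy. Ndufs5 and Rab3b were singled out after their values were seen, and the part that the shared chromosome plays in Foxo6 was not tested.

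**Figure D4:**
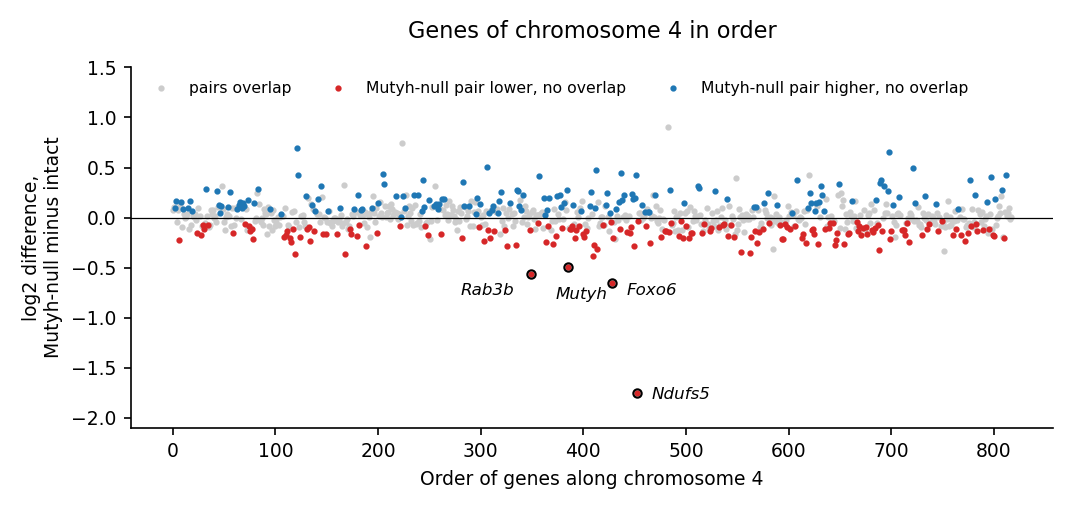
Difference in mean log2(RPKM + 1) between the Mutyh-null and Mutyh-intact pairs (vertical axis) for compared genes of chromosome 4 and for Mutyh, in their order along the chromosome (horizontal axis), coloured by whether the pairs overlap. Ndufs5, Foxo6, Rab3b and Mutyh, circled, have the 4 lowest values shown. The genes that lie between them in the order fall on both sides of zero.

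The genes next to Foxo6 differed by less. Hivep3, a zinc finger gene on one side, was at 10.8, 10.6, 10.3 and 10.4 RPKM in WT, Ogg1 KO, Mutyh KO and DKO (Mutyh-null over Mutyh-intact 0.964-fold, 0.918 to 1.01), lower in both Mutyh-null libraries by little. Foxj3, another forkhead gene and the second neighbour on that side, was at 18.4, 19.2, 19.4 and 19.5 RPKM (1.04-fold, 0.986 to 1.09), and the third, AA415398, was at 0.888-fold (0.742 to 1.06). On the other side Scmh1, a Polycomb gene, was lower at 16.1, 17.3, 14.8 and 13.95 RPKM (0.860-fold, 0.806 to 0.918). Ctps, which makes CTP, was at 0.969-fold (0.884 to 1.06) and Cited4, a transcriptional coactivator with 20 to 46 reads, at 0.738-fold (0.499 to 1.08). Of the 20 nearest compared genes, 10 on each side, 4 were lower and 7 higher without overlap, beside 19.6% and 18.3% of all genes, none of the lower ones by 20%, and their values ran from -0.21 to 0.45. The like counts were 2 lower and 3 higher around Foxo1, 3 and 4 around Foxo3, and 4 and 4 around Foxo4, each of 20 genes and beside the same shares.

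Among 11126 genes with at least 100 reads in every library, the profile over the 4 libraries that was closest to that of Foxo6 was that of Rab3b, which encodes a small GTPase of synaptic vesicles. Likeness was the Euclidean distance between log2(RPKM + 1) profiles centred on their own mean, which was 0.21 for Rab3b beside a median of 0.67 over the genes searched. A flat profile lay 0.67 from that of Foxo6 too, so the median is about the distance of a gene that does not differ between libraries. Closeness to Foxo6 includes the contrast that chose it. Rab3b was at 16.2, 15.9, 12.2 and 9.12 RPKM in WT, Ogg1 KO, Mutyh KO and DKO. Next was Crhr1, a receptor for corticotropin-releasing hormone, on chromosome 11 (distance 0.22), at 4.98, 5.44, 3.51 and 3.48 RPKM. The uncharacterised gene 1700037H04Rik, Timm8b, a mitochondrial import chaperone, and Hes1, a target of Notch signalling, followed at distances of 0.28 each. These distances rest on 4 libraries and describe them only.

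Upstream of the FoxO proteins, the insulin and IGF pathway to Akt was spread to both sides of zero. Of its 20 genes, 4 were lower and 6 higher in both Mutyh-null libraries, beside 19.6% and 18.3% of all genes, with a median difference of 0.07 beside 0.00 over all genes, and none was 20% lower or 25% higher without overlap. Among ligands, Igf2, a growth factor, was at 24.6, 78.99, 114 and 59.7 RPKM in WT, Ogg1 KO, Mutyh KO and DKO. It was high in all 3 knockouts, as were the choroid plexus markers (251, 2888, 2819 and 1449 RPKM summed over 10 genes) and the meningeal markers (18.9, 34.8, 47.6 and 46.3 RPKM over 6 genes). The part of either in the Igf2 values was not tested.

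The receptors of this pathway were higher in the Mutyh-null libraries. Igf1r, the IGF1 receptor, was at 11.8 and 11.8 RPKM in WT and Ogg1 KO and at 14.6 and 13.4 in Mutyh KO and DKO (1.19-fold over the summed pairs, 1.14 to 1.23). Insr, the insulin receptor and itself a known FoxO target, was at 8.08, 8.32, 9.52 and 9.01 RPKM (1.13-fold, 1.07 to 1.19). Of the adaptors that carry the receptor signal, Irs1 was at 1.08-fold (0.998 to 1.18) and Irs2 at 0.958-fold (0.905 to 1.01). Against WT, Irs2 was 0.735-fold in Ogg1 KO (0.677 to 0.797), 0.823-fold in Mutyh KO (0.761 to 0.890) and 0.846-fold in DKO (0.784 to 0.914). Such intervals lay below 1 for 16.2%, 16.4% and 17.2% of all genes. The intervals of Irs1 against WT all included 1.

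Of the kinases below the receptors, Akt1 was at 65.9, 71.0, 61.6 and 59.85 RPKM in WT, Ogg1 KO, Mutyh KO and DKO (0.888-fold, 0.857 to 0.920) and Akt2 at 1.04-fold (0.995 to 1.09). Pik3ca, the catalytic subunit of PI3 kinase, was at 1.07-fold (1.02 to 1.13), and Pdpk1, which activates Akt, at 0.994-fold (0.956 to 1.03). Sgk1, a kinase that also phosphorylates FoxO3, was high in Mutyh KO alone (24.5 RPKM beside 18.0 to 19.9), and its relative Sgk3 was at 2.001, 3.003, 3.62 and 2.46 RPKM.

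Of 34 genes whose products modify FoxO proteins or hold them in the cytoplasm, 6 were lower and 5 higher in both Mutyh-null libraries, near the 19.6% and 18.3% of all genes, with a median difference of -0.00 and none 20% lower or 25% higher without overlap. Sirt1, a deacetylase of FoxO proteins, was at 4.22, 4.95, 4.15 and 4.85 RPKM in WT, Ogg1 KO, Mutyh KO and DKO. Mapk14, the stress kinase p38 alpha, was at 27.2, 27.8, 22.6 and 25.5 RPKM (0.876-fold, 0.835 to 0.920). Crebbp, an acetyltransferase and coactivator, was at 21.0, 18.4, 22.9 and 21.8 RPKM (1.13-fold, 1.09 to 1.17), and Cdk2, a cell cycle kinase, rested on 26 to 57 reads (1.303-fold, 0.953 to 1.79).

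Known FoxO targets lay on both sides of zero. Of 45 listed genes, 40 were compared, and 9 of these were lower and 7 higher in both Mutyh-null libraries, beside 19.6% and 18.3% of all genes, with a median difference of -0.02. Against WT by any amount, 17, 24 and 26 of the 40 were lower in Ogg1 KO, Mutyh KO and DKO. Over all 13186 genes these counts were 5987, 6191 and 6691. Txnip, an inhibitor of thioredoxin and of glucose uptake, was at 8.18 and 8.64 RPKM in WT and Ogg1 KO and at 12.2 and 10.8 in Mutyh KO and DKO (1.37-fold, 1.249 to 1.497). Gadd45a, a DNA damage response gene, was at 2.48, 2.64, 1.52 and 1.93 RPKM (0.678-fold, 0.499 to 0.917), on 32 to 55 reads. Cat, the catalase that removes hydrogen peroxide, was at 24.4, 24.3, 31.0 and 27.2 RPKM (1.19-fold, 1.13 to 1.26). Txnip and Gadd45a were the targets past these limits without overlap, 1 in each direction.

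**Figure D5:**
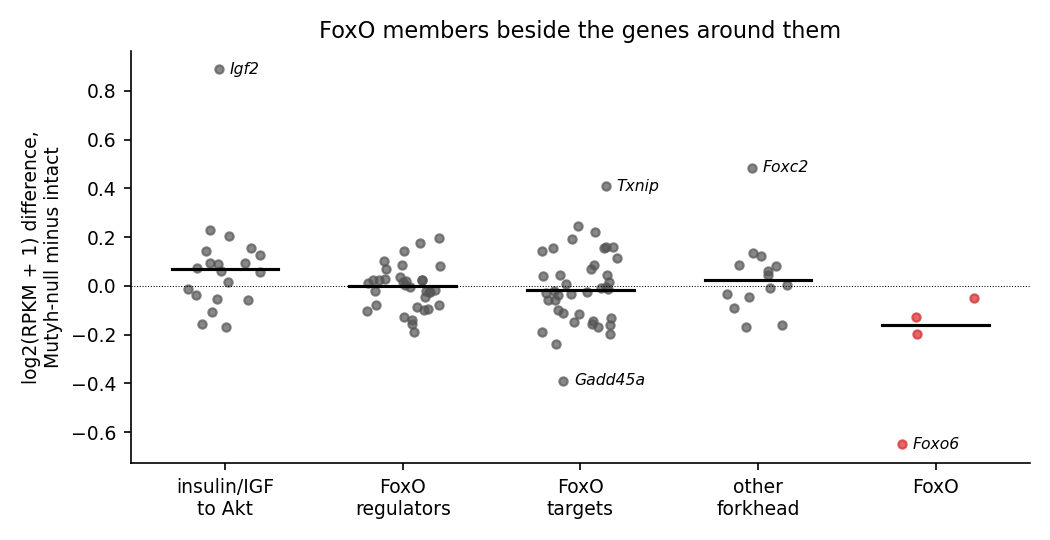
Difference in mean log2(RPKM + 1) between the Mutyh-null and Mutyh-intact pairs (vertical axis) for each compared gene of 4 lists and for the FoxO members, with a bar at each median. List medians lie between -0.02 and 0.07, and Foxo6 at -0.65 is the lowest point shown.

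FoxO proteins bind a short core sequence, so the 250 bases before the start site were searched on both strands for the FoxO binding motif TGTTTAC (RefSeq promoters, GRCm38.p6). It was found in 6 of the 38 listed targets with a promoter entry, 15.8%, beside 3.54% of 27025 genes and 3.17% of 32851 promoters. The list was made of known FoxO targets, so the higher share says nothing about these libraries. A match is a description of these letters and not a bound site. The windows below run 5′ to 3′ on the strand of the gene, which is the plus strand for all 6, with the motif, or its reverse complement GTAAACA, in capitals and up to 20 bases on each side.
Txnip, chr3:96557816-96557862: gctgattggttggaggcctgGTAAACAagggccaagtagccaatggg
Bbc3, chr7:16310074-16310120: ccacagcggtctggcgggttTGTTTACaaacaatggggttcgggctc
Bcl2l11, chr2:128125791-128125837: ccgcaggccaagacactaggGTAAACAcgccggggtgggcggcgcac
Btg1, chr10:96616777-96616823: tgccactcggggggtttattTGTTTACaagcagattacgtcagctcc
Mxi1, chr19:53329445-53329490: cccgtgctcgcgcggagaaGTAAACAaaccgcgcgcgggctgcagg
Trim63, chr4:134314906-134314952: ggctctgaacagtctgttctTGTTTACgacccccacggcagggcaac

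The targets that carry the motif did not move together. Txnip was higher in both Mutyh-null libraries, as given above. Btg1, an antiproliferative gene, was lower (6.85, 6.32, 5.87 and 5.70 RPKM in WT, Ogg1 KO, Mutyh KO and DKO, 0.877-fold, 0.805 to 0.955), as was Mxi1, which antagonises Myc (11.8, 13.7, 11.4 and 11.4 RPKM, 0.894-fold, 0.842 to 0.949). The genes of cell death Bcl2l11 (0.982-fold, 0.818 to 1.18) and Bbc3 (0.909-fold, 0.764 to 1.08) had intervals that include 1, and Trim63, a ubiquitin ligase of muscle, had 1 to 5 reads and was not compared. These genes were named for the motif after their values were seen.

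Of 34 other forkhead genes listed, 14 were compared, and 2 were lower (Foxj2 and Foxk2) and 2 higher (Foxc2 and Foxj3) in both Mutyh-null libraries, near the 19.6% and 18.3% of all genes, with a median difference of 0.02. Foxk2, a widely expressed regulator of metabolism and autophagy, was at 24.3, 25.4, 21.5 and 22.5 RPKM in WT, Ogg1 KO, Mutyh KO and DKO (0.886-fold, 0.849 to 0.925). Foxj2 was at 13.0, 12.3, 12.2 and 10.3 RPKM (0.886-fold, 0.833 to 0.941). Foxc2, a factor of vessels and mesenchyme, had 23, 49, 52 and 89 reads, highest in DKO, beside the meningeal marker sums given above, whose part in the Foxc2 values was not tested.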

How the data were processed

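Hippocampal RNA was sequenced in 4 libraries, 1 per genotype, and grouped by the genotype label. The authors deposited for each gene a count of unique reads, the gene length, coverage as the percent of that length with reads, and RPKM, per the file headers. The genome build was mm9, per the submitters' processing notes. For the aligner, counter, annotation and strand, the sources used here give nothing. Genes lacking a symbol took at most 0.0195% of reads and are identified by number, and a gene absent from a library's table was set to 0.

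From these values, folds of reads per library total were computed with exact conditional 95% intervals, levels with exact Poisson intervals, and differences as log2(RPKM + 1), which understates changes of weakly expressed genes. Genes with a mean of at least 1 RPKM were compared. Alternatives were median-of-ratios and TMM scaling (edgeR 4.0.16, factors only), library totals without ribosomal RNA, choroid plexus and globin genes, a pseudocount of 0.1 RPKM, other filters and other fold limits. Interval calculations were tested on simulated data. Gene order came from a RefSeq table of GRCm38.p6, which matched 18398 of 18492 gene IDs. Promoters were found for 2 of the 4 members (Foxo1, Foxo3), and for neither Foxo4 nor Foxo6. Since mm9 differs from that build, the only positions given are those of the RefSeq promoter windows, in GRCm38.p6. Python 3.11.15 and scipy 1.17.1 were used.

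The members and lists were chosen with earlier results of these data known. Named were all members, the core pathway genes, the 3 genes of each list with the largest Mutyh-null against Mutyh-intact difference or any gene 2-fold from WT, the 5 profiles closest to Foxo6 and its 3 neighbours on each side. Some genes that this rule names are not reported here.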

Additional observations from a re-analysis of the deposited data

How the results depend on the processing

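The Foxo6 folds for Mutyh KO and DKO against WT and for DKO against Ogg1 KO kept their direction and an interval below 1 under all 3 other scalings. Those scalings changed library totals only by factors of 0.987 to 1.01, too little to reverse folds of this size. With each library left out in turn, an alternative added after seeing the data, the summed-pair fold ran from 0.574 to 0.655 for Foxo6, 0.894 to 1.04 for Foxo1, 0.850 to 0.970 for Foxo3 and 0.808 to 0.904 for Foxo4. For Foxo6 a fold below 1 was fixed in advance by its choice, since both Mutyh-null libraries lie below both Mutyh-intact ones. Taken apart, Mutyh KO against WT and DKO against Ogg1 KO gave 0.690 and 0.546 for Foxo6 and 1.07 and 0.874 for Foxo1. The interval of Foxo3 came to include 1 with median-of-ratios scaling in DKO against Mutyh KO and against Ogg1 KO, and in the latter also with the reduced totals, under which that of Foxo1 in Mutyh KO against WT lay above 1.

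Background counts moved more. Genes without overlap and past the lower limit numbered 102, and 9 at 1.5-fold (added after seeing the data), 2 at 2-fold, 58 at a mean of at least 5 RPKM, 189 with a pseudocount of 0.1 and 167 to 366 with 1 library left out. Those past the upper limit numbered 305, and 71, 18, 108, 574 and 407 to 818 in the same order. Leaving out 1 library compares fewer libraries, and genes without overlap then rose from 2582 to between 4012 and 5007 lower, and from 2416 to between 3856 and 5104 higher. The latter were 1369 at a mean of at least 5 RPKM. Other forkhead genes higher without overlap numbered 1 at that filter and 6 with none, and regulators 3 under TMM and 3 under median-of-ratios scaling. The cause was not tested. The summed-pair fold of Foxo1, 0.965 with an interval that includes 1, was 1.07 in Mutyh KO against WT alone and 1.04 without Ogg1 KO. Both of these intervals also include 1. Small list medians changed sign as well: that of the regulators was 0.01 with the reduced totals beside -0.00, and that of other forkhead genes -0.00 at a mean of at least 5 RPKM beside 0.02. In all, 33 of 250 alternative values moved beyond their limits. No paired analysis was possible because each genotype has 1 library.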

Other observations

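Foxj1, the forkhead factor of motile cilia, chosen after its values were seen, had 363, 401, 509 and 326 reads in WT, Ogg1 KO, Mutyh KO and DKO, or 7.71, 9.06, 11.4 and 6.89 RPKM. The 4 ependymal markers, of which Foxj1 is one, summed to 19.97, 23.05, 36.4 and 19.3 RPKM, so both were highest in Mutyh KO.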
